A study of Danio rerio with 20 samples.

Results

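The genes of the unfolded protein response and of protein folding in the endoplasmic reticulum (ER) were described in the skin of male zebrafish. They were chosen by gene name: 39 symbols were listed, and 38 of them had a row among the 32105 genes of the count table. The remaining symbol, atf4a, was not analysed here. The study measured skin RNA in 20 libraries, 5 from each combination of age (1 year or 3 years) and perturbation (none or swim-tunnel). All fish carried the strain label AB JxTu, and none of the labels gave the length or intensity of swimming.

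The ER folds membrane and secreted proteins, which skin makes in bulk as collagen, mucus and cell-surface proteins. When unfolded proteins build up, 3 membrane sensors respond. Ern1 (Ire1) splices the mRNA of the transcription factor Xbp1, Atf6 is cut to release a transcription factor, and Eif2ak3 (Perk) phosphorylates the initiation factor eIF2 alpha, which slows translation and favours that of Atf4. Atf6 and Xbp1 act on genes for chaperones and for ER-associated degradation, while Atf4 and Ddit3 (Chop) act on amino acid, redox and cell death genes; most of this is known from mammals and yeast. Counts per gene do not show splicing of xbp1, cleavage of Atf6 or phosphorylation of Eif2ak3.

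Library totals ran from 29280697 to 52437698 counted reads, and the lowest count of any of the 38 genes in any library was 15 reads, for ppp1r15b. All 38 were among the 20788 genes tested. Levels are given as CPM, counts set relative to library sizes that were scaled by the trimmed mean of M values (TMM). Differences are log2 fold changes from edgeR's quasi-likelihood test, and a gene was called where its Benjamini-Hochberg adjusted p, taken over all genes tested, was below 0.05. Basal keratinocyte markers summed to between 54900 and 119000 CPM in every library, and fast skeletal muscle markers to between 3140 and 20300 CPM. The table column for replicate 1 of the unexercised 1-year fish is headed as muscle although its label says skin. Its sums were 63400 CPM for basal keratinocyte and 8040 CPM for muscle markers, within those ranges, whose ends came from other libraries. Within its group the muscle sum was inside the range of the others (4520 to 11300 CPM). The basal keratinocyte sum was below the others (68900 to 82600 CPM). Its superficial keratinocyte sum, 4650 CPM, was the lowest of all 20 libraries. The labels tie no library to a named animal, so the p-values measure only the spread between these libraries.

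Exercise went with lower levels of 3 of the 38 genes in 1-year fish and with a higher level of 1 gene in 3-year fish. At 1 year eif2ak3, hsp90b1 and pdia4 fell and no gene rose. That is 7.89% of the 38 genes, beside 15.5% of all genes tested that were called in either direction and 8.15% that were called lower. At 3 years manf rose and no gene fell, which is 2.63% of the 38, beside 1.32% of all genes called and 0.803% called higher. At 1 year the share called lower was thus close to that of all genes, and the share at 3 years is that of 1 gene.

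Age went with no call among the 38 genes in unexercised fish. In edgeR's quasi-likelihood test 0 genes were called and 9 had an unadjusted p below 0.05. Of the 20788 genes tested, 0.967% were called in that test and 3573 had an unadjusted p below 0.05. DESeq2 and limma voom each called hyou1 and manf as lower, beside 4.05% and 4.47% of all genes tested that they called. Between the exercised groups eif2ak3 and hsp90b1 rose from 1 to 3 years, 5.26% of the 38, beside 17.2% of all genes called and 9.73% called higher. The exercise effect at 3 years minus that at 1 year was called for 0 of the 38 genes and for 1 of all genes tested, or 0.00481%. For 9 of the 38 that difference had an unadjusted p below 0.05, as it had for 2783 of all genes tested. DESeq2 called hsp90b1 and hyou1, beside 2.4% of all genes tested, and limma voom called 0 of the 38. Comparisons that use the same group of libraries are not independent of each other: each group of 5 enters 2 of the comparisons of pairs, and all 4 enter the difference. By edgeR's quasi-likelihood test 4 of the 38 genes were called in at least 1 comparison and 34 in none. DESeq2 called these 4 and also atf6, creld2, hyou1, xbp1 and hspa5 in at least 1. Of all genes tested DESeq2 called 19.7% with exercise at 1 year and 6.24% at 3 years. With age it called 4.05% without and 22.5% with exercise, and for the difference 2.4%.

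Levels per kilobase of gene length, which allow genes to be compared, differed widely. The Atf4 and Chop target chac1, which encodes an enzyme that degrades glutathione, stood highest at 525 ± 238 CPM per kb (SD, n = 20 libraries). It was followed by atf4b at 203 ± 44.2, the disulfide isomerase pdia3 at 164 ± 37.3 and the chaperone hspa5 at 150 ± 53.4 CPM per kb. These neighbours overlapped in their ranges over libraries, chac1 from 205 to 1130 and atf4b from 154 to 358 CPM per kb. The subunits of the translocon and of the TRAP complex formed a band from sec61b at 50.3 to ssr3 at 105 CPM per kb. The sensors ranked 31, 32 and 33 of the 38, with atf6 at 11.3, eif2ak3 at 8.09 and ern1 at 5.78 CPM per kb. The lowest was ppp1r15b, a regulatory subunit of the phosphatase that reverses the action of Perk, at 0.403 ± 0.0993 CPM per kb.

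**Figure D1:**
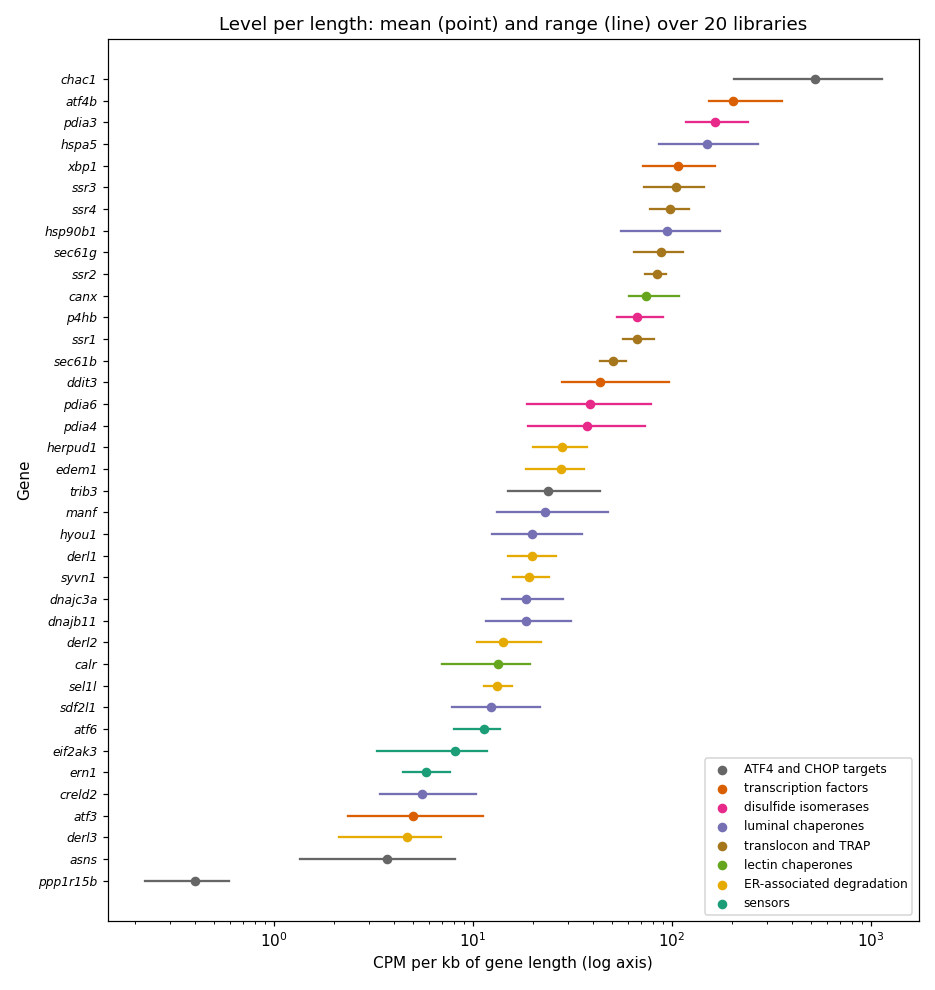
Mean level of each of the 38 genes in CPM per kb of gene length over 20 libraries (points, log axis), with the range over libraries (lines), coloured by role. The top gene is chac1 at 525 CPM per kb and the lowest is ppp1r15b at 0.403 CPM per kb, with the 3 sensors between 5.78 and 11.3.

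Of the sensors, eif2ak3 moved most. In unexercised 1-year fish it stood at 45.9, 47.9, 47.1, 51.3 and 35.1 CPM in replicates 1 to 5, and in swim-tunnel 1-year fish at 24.1, 14.6, 24, 19.9 and 28 CPM. Every exercised library lay below every unexercised one. The log2 fold change was -1.04 (SE 0.14, adjusted p = 0.000637), from 45.4 ± 6.15 to 22.1 ± 5.09 CPM (SD, n = 5 each), and it held its call in all 20 fits that each left out 1 library. As these are bulk samples, fewer cells of a type and less RNA per cell cannot be told apart.

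In 3-year fish eif2ak3 stood at 40.3, 43.1, 43.5, 48.7 and 39.5 CPM without exercise and at 32.7, 33.5, 33.7, 33.8 and 25.5 CPM with it. The groups again did not overlap, but the fold change of -0.44 (SE 0.14, adjusted p = 0.11) was not called. Such separation without overlap was seen at 1 year in 12.8% and at 3 years in 4.32% of all genes tested. The exercise effects at both ages differed by 0.60 (SE 0.20, adjusted p = 0.196), which was not called. Within the exercised fish eif2ak3 was higher at 3 years than at 1 year by 0.53 (SE 0.14, adjusted p = 0.019), with replicate 5 of the older group inside the range of the younger. That call was lost without replicate 4 of the swim-tunnel 1-year fish (0.48, adjusted p = 0.0522).

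The other sensors did not pass edgeR's quasi-likelihood test in any comparison. The Atf6 gene atf6 had 43.0 ± 6.68 CPM in unexercised and 54.1 ± 1.64 CPM in swim-tunnel 3-year fish, with no overlap and a fold change of 0.33 (SE 0.11, adjusted p = 0.104); DESeq2 called it higher (adjusted p = 0.0424). Its relative spread in the latter group, with values from 51.3 to 55.5 CPM, was the smallest of any of the 38 genes in that group. The Ire1 gene ern1 kept group means between 26.9 and 31.6 CPM.

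The transcription factors overlapped between groups in every comparison. The Xbp1 gene stood at 219, 234, 231, 286 and 261 CPM in unexercised and at 269, 281, 205, 309 and 215 CPM in swim-tunnel 1-year fish. At 3 years it stood at 199, 245, 214, 208 and 170 CPM without exercise and at 313, 376, 203, 391 and 235 CPM with it. Replicates 1, 2 and 4 of the last group were above all other libraries of xbp1, and replicates 3 and 5 were inside the unexercised range. The fold change of xbp1 at 3 years was 0.55 (SE 0.17, adjusted p = 0.0903 in edgeR's quasi-likelihood test and 0.0419 in DESeq2, which called it), and at 1 year 0.05 (SE 0.17, adjusted p = 0.859).

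The Atf4 gene atf4b stood at 350, 331, 348, 412 and 401 CPM in unexercised and at 439, 432, 333, 519 and 304 CPM in swim-tunnel 1-year fish. In 3-year fish it stood at 371, 406, 358, 335 and 386 CPM without exercise and at 431, 709, 371, 430 and 385 CPM with it. Replicate 2 of the last group stood apart, and no fold change was called, the one at 3 years being 0.33 (SE 0.16, adjusted p = 0.288).

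The Chop gene ddit3 stood at 66.8, 38.7, 69.0, 39.8 and 40.3 CPM in unexercised and at 51.8, 70.2, 41.5, 60.7 and 43.2 CPM in swim-tunnel 1-year fish. In 3-year fish it stood at 133, 58.6, 65.6, 42.0 and 43.0 CPM without exercise and at 76.1, 74.2, 66.4, 60.1 and 61.9 CPM with it. The highest value came from 1 unexercised 3-year fish, and the swim-tunnel 3-year libraries lay close together. Its fold changes were 0.07 (SE 0.27) with exercise at 1 year and -0.02 (SE 0.27) at 3 years, with intervals of 2 SE from -0.47 to 0.61 and from -0.55 to 0.52. The stress-induced factor atf3 had group means between 10.6 and 16.8 CPM and was not called.

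**Figure D2:**
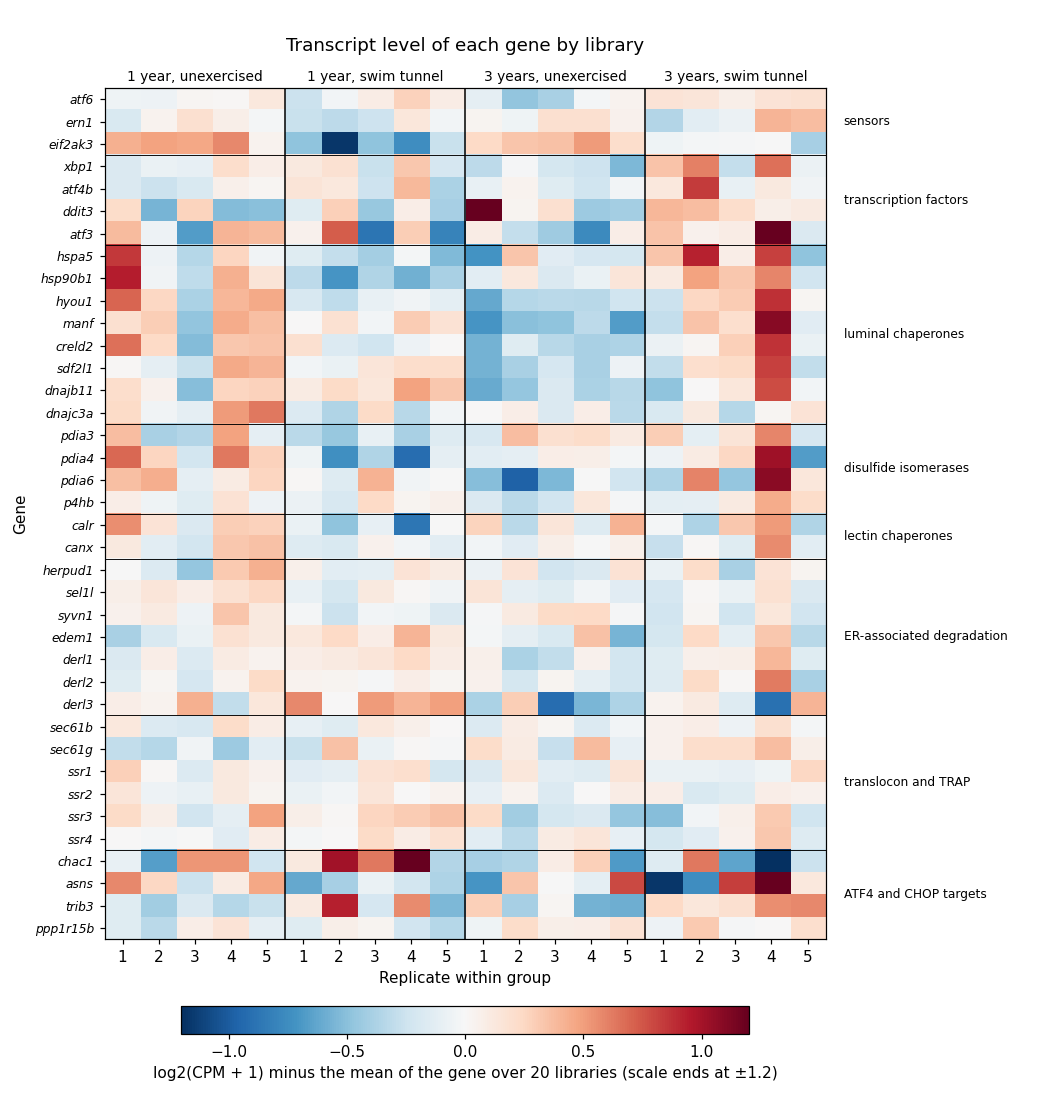
Level of each gene (rows, grouped by role) in each library (columns, 5 replicates in each of 4 groups) as log2(CPM + 1) minus the mean of that gene over 20 libraries. Replicate 4 of the swim-tunnel 3-year fish has the highest value of 17 genes, and the eif2ak3 row is low in all 5 swim-tunnel 1-year libraries.

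The luminal chaperones had opposite median shifts with exercise at the 2 ages. Their median log2 fold change with exercise was -0.37 at 1 year, where 7 of 8 values were negative and 1 gene was called, and 0.55 at 3 years, where 8 of 8 were positive and 1 gene was called. Over all genes tested the median was 0.01 in both, and 15.5% were called at 1 year and 1.32% at 3 years. Without replicate 4 of the swim-tunnel 3-year fish the 3-year median was 0.38, with 8 of 8 positive. Then 0 were called, beside 1.16% of all genes. In the fit of all 20 libraries the median with age was -0.47 without exercise, with 8 of 8 negative and 0 called by edgeR's quasi-likelihood test. Of the 8, 6 had an unadjusted p below 0.05, as did 3573 of the 20788 genes tested. With age in exercised fish the median was 0.27, and 0.09 without replicate 4 of the swim-tunnel 3-year fish. No test of the group was made, and its 8 members are not replicates of a condition. Some other lists leaned lower with age in unexercised fish as well. Negative values were 48 of 51 for ER to Golgi transport, 28 of 33 for other translocation, 35 of 48 for other folding and 7 of 7 for ER-associated degradation genes. They were 24 of 40 for other degradation and glycan genes, 14 of 24 for other regulators and 25 of 51 for other Atf4 targets, beside 9887 of the 20788 genes tested.

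The main ER Hsp70, hspa5 (BiP), binds unfolded chains and holds the sensors inactive. It stood at 599, 319, 262, 397 and 322 CPM in unexercised and at 301, 272, 250, 328 and 230 CPM in swim-tunnel 1-year fish. In 3-year fish it stood at 202, 419, 302, 290 and 288 CPM without exercise and at 419, 631, 351, 589 and 238 CPM with it. The groups overlapped at both ages. Its fold changes were -0.46 (SE 0.25, adjusted p = 0.231) at 1 year and 0.57 (SE 0.25, adjusted p = 0.224) at 3 years. Between the exercised groups hspa5 was at 0.69 (SE 0.25, adjusted p = 0.0654 in edgeR's quasi-likelihood test), which DESeq2 called (adjusted p = 0.0452). There DESeq2 called 22.5% of all genes tested.

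The ER Hsp90, hsp90b1 (Grp94), matures integrins and Toll-like receptors in mammals. It stood at 482, 243, 203, 337 and 280 CPM in unexercised and at 202, 153, 195, 168 and 191 CPM in swim-tunnel 1-year fish. The groups did not overlap, though replicate 3 of the former and replicate 1 of the latter nearly met. The fold change was -0.76 (SE 0.19, adjusted p = 0.0115) and kept its call in all 20 fits that each left out 1 library. Without replicate 1 of the unexercised fish, whose column is headed as muscle, it was -0.55 (adjusted p = 0.0383).

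In 3-year fish hsp90b1 stood at 229, 274, 222, 237 and 278 CPM without exercise and at 271, 350, 314, 378 and 214 CPM with it, and the groups overlapped (0.30, SE 0.19, adjusted p = 0.402). Between the exercised groups it rose with age by 0.75 (SE 0.19, adjusted p = 0.0137), with no overlap, a separation found in 9.13% of all genes. The exercise effects at both ages differed by 1.06 (SE 0.27, adjusted p = 0.111 in edgeR's quasi-likelihood test). Another annotated gene, glt8d2, overlaps hsp90b1 in RefSeq on a build other than that of the counts, and the kit does not mark strand.

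Hyou1 (Grp170) exchanges nucleotide on BiP. It stood at 126, 92, 59.2, 102 and 106 CPM in unexercised and at 67.6, 62.2, 72.8, 75.2 and 71.3 CPM in swim-tunnel 1-year fish. In 3-year fish it stood at 50.1, 60.6, 61.4, 61.0 and 65.2 CPM without exercise and at 64.6, 92, 95.8, 143 and 78.4 CPM with it. In 4 of 5 swim-tunnel 3-year libraries it was above every unexercised one, and replicate 1 was inside their range. No fold change of hyou1 was called by edgeR's quasi-likelihood test: -0.48 (SE 0.19, adjusted p = 0.0887) and 0.67 (SE 0.19, adjusted p = 0.0737) with exercise, and -0.70 (SE 0.19, adjusted p = 0.075) with age in unexercised fish. DESeq2 called the rise at 3 years (adjusted p = 0.0207) and the fall with age (adjusted p = 0.0172), and limma voom called hyou1 lower at 1 year.

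Manf is a small ER protein that is secreted under ER stress. It stood at 41.1, 44.4, 25.5, 49.2 and 46.3 CPM in unexercised and at 36.1, 41.0, 35.1, 44.6 and 40.6 CPM in swim-tunnel 1-year fish. In 3-year fish it stood at 21.6, 25.0, 25.4, 28.7 and 22.2 CPM without exercise and at 29.2, 45.9, 41.3, 77.9 and 32.6 CPM with it. All swim-tunnel 3-year libraries lay above all unexercised ones, the nearest being replicate 1 with 29.2 and replicate 4 with 28.7 CPM. The rise was 0.89 (SE 0.21, adjusted p = 0.0481), from 24.6 ± 2.83 to 45.4 ± 19.4 CPM.

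The call for manf rests on little margin. It held in 3 of the 20 fits that each left out 1 library, those without replicate 3 of the unexercised 1-year, replicate 4 of the swim-tunnel 1-year or replicate 1 of the swim-tunnel 3-year fish. Without replicate 4 of the swim-tunnel 3-year fish it was 0.60 (SE 0.17, adjusted p = 0.0745). With age in unexercised fish manf was -0.75 (SE 0.21, adjusted p = 0.093), replicate 3 of the younger group lying within the older range; no overlap was seen in 5.08% of all genes there.

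Creld2 is an ER-stress-inducible protein with disulfide activity in mammals. It stood at 13.6, 9.91, 5.43, 10.6 and 10.7 CPM in unexercised and at 9.53, 7.25, 6.82, 7.85 and 8.30 CPM in swim-tunnel 1-year fish. In 3-year fish it stood at 5.26, 7.35, 6.34, 6.06 and 6.15 CPM without exercise and at 7.81, 8.39, 10.3, 15.9 and 7.77 CPM with it. The 3-year groups did not overlap, but the fold change of 0.69 (SE 0.22, adjusted p = 0.0999) was not called by edgeR's quasi-likelihood test. DESeq2 called it higher (adjusted p = 0.0421).

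The co-chaperones were not called either. With exercise at 3 years sdf2l1 was at 0.53 (SE 0.20) and dnajb11, an Hsp40 partner of BiP, at 0.54 (SE 0.19). Dnajc3a, another Hsp40 of the lumen, was at 0.03 (SE 0.16) at 3 years and at -0.40 (SE 0.16, adjusted p = 0.0892) at 1 year.

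**Figure D3:**
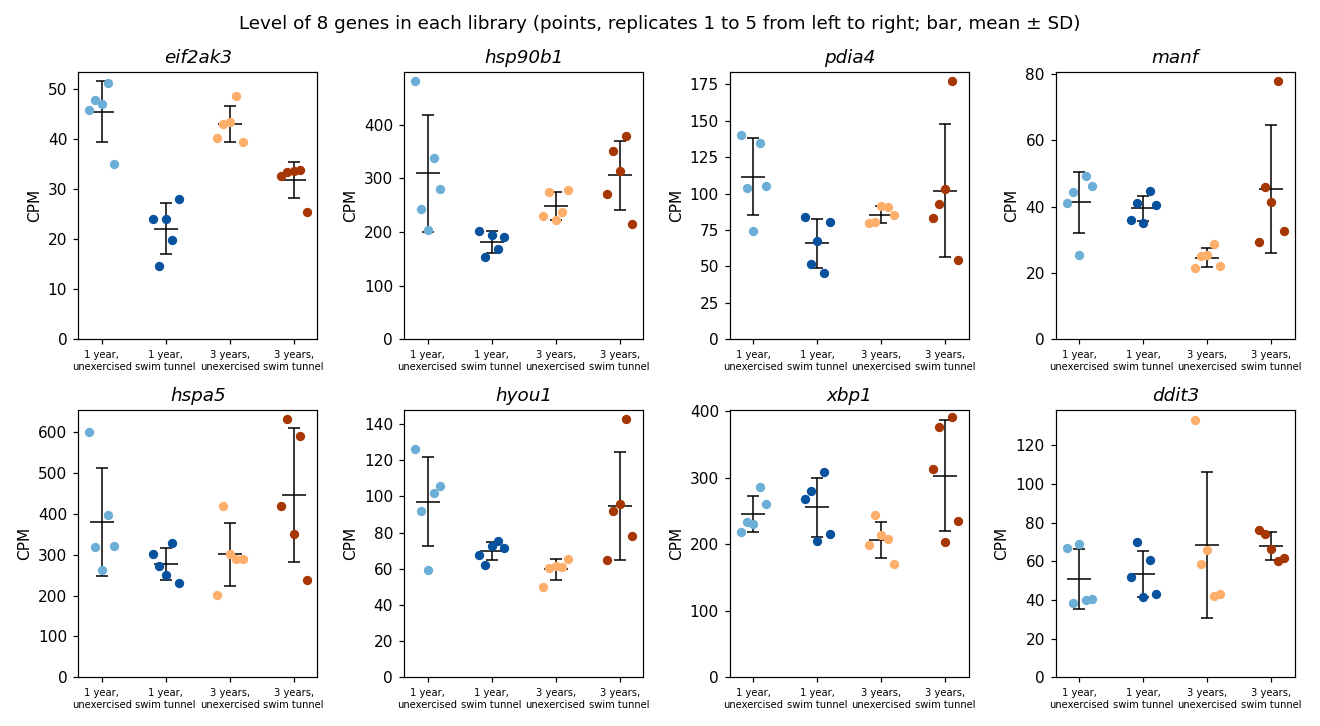
CPM of 8 genes in each of the 20 libraries (points, replicates 1 to 5 from left to right) with the mean ± SD of each group (bars). The swim-tunnel 1-year libraries of eif2ak3, at 14.6 to 28 CPM, are all below the unexercised ones at 35.1 to 51.3 CPM, and replicate 4 of the swim-tunnel 3-year fish carries the highest manf, pdia4 and hyou1 values.

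Of the disulfide isomerases, pdia4 fell with exercise at 1 year. It stood at 140, 104, 74.5, 135 and 105 CPM in unexercised and at 83.9, 51.6, 67.1, 45.6 and 80.6 CPM in swim-tunnel fish, with replicate 3 of the unexercised group inside the other range. The fold change was -0.77 (SE 0.25, adjusted p = 0.0408). It lost its call in 8 of the 20 fits that each left out 1 library, which were those without replicate 1, 2, 4 or 5 of the unexercised 1-year fish, replicate 2, 3 or 4 of the swim-tunnel 1-year fish or replicate 5 of the unexercised 3-year fish, with adjusted p up to 0.113. At 3 years pdia4 stood at 79.6, 80.6, 91.5, 90.9 and 85.4 CPM without exercise and at 83.2, 92.7, 103, 177 and 54.2 CPM with it, which overlapped.

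Pdia6 stood at 98.0, 103, 70.5, 81.1 and 91.2 CPM in unexercised and at 76.7, 67.9, 102, 73.7 and 75.7 CPM in swim-tunnel 1-year fish. At 3 years it stood at 53.1, 38.2, 51.8, 75.8 and 64.5 CPM without exercise and at 58.4, 115, 54.6, 162 and 83.4 CPM with it. The swim-tunnel 3-year libraries split, with replicates 1 and 3 inside the unexercised range, and no fold change was called (0.74, SE 0.25, adjusted p = 0.115). The calnexin partner pdia3 and p4hb, which also serves as a subunit of the enzyme that hydroxylates collagen prolines, were not called in any comparison, and p4hb kept group means of 177 to 209 CPM. Of the lectin chaperones, which hold glycoproteins during folding, calr was at -0.53 (SE 0.21, adjusted p = 0.0905) with exercise at 1 year, and canx at -0.19 (SE 0.14).

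Genes of ER-associated degradation and of the translocon had small fold changes and no calls. The degradation list, with the ubiquitin ligase syvn1, its partner sel1l, the derlins, herpud1 and edem1, had 0 of 7 genes called by edgeR's quasi-likelihood test in every comparison and medians between -0.09 and 0.08. At an unadjusted p below 0.05 it had 1, 1, 1, 0 and 0 genes in the comparisons of exercise at 1 year, exercise at 3 years, age without exercise, age with exercise and the difference. Of the 20788 genes tested, 6197, 4028, 3573, 6779 and 2783 were at that level in the same order. The largest fold change of the degradation list was that of derl3, at -0.49 (SE 0.25, adjusted p = 0.179) with age in exercised fish. The 6 subunits of the Sec61 channel and the TRAP complex, through which chains enter the ER, had fold changes from -0.30 to 0.33 over the 5 comparisons and 0 calls. At an unadjusted p below 0.05 this list held sec61g alone, with age in unexercised fish (0.33, SE 0.13, adjusted p = 0.206). DESeq2 and limma voom called none of either list.

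The 4 genes listed as targets of Atf4 and Chop went in mixed directions. They include the phosphatase subunit ppp1r15b, with group means of 0.797 to 1.09 CPM, whose regulation by Atf4 or Chop was not tested. By edgeR's quasi-likelihood test none of the 4 was called, and DESeq2 and limma voom called none. With exercise at 1 year, the fit of the compared groups alone called asns lower (17.9% of all genes called). The fit without replicate 5 of the swim-tunnel 1-year fish called trib3 higher (14.9% of all genes called). In the same order of comparisons 1, 1, 0, 1 and 0 of the 4 genes had an unadjusted p below 0.05 in the reported fit. Over all genes tested these numbers were 6197, 4028, 3573, 6779 and 2783. At 1 year chac1 had 867 ± 300 CPM without and 1270 ± 526 CPM with exercise (0.55, SE 0.34, adjusted p = 0.282). The pseudokinase gene trib3 was at 0.55 (SE 0.23, adjusted p = 0.113) at 1 year and 0.57 (SE 0.23, adjusted p = 0.18) at 3 years. Asparagine synthetase, asns, was at -0.62 (SE 0.38, adjusted p = 0.281) at 1 year; it spread widely in swim-tunnel 3-year fish, from 5.43 to 32.4 CPM.

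**Figure D4:**
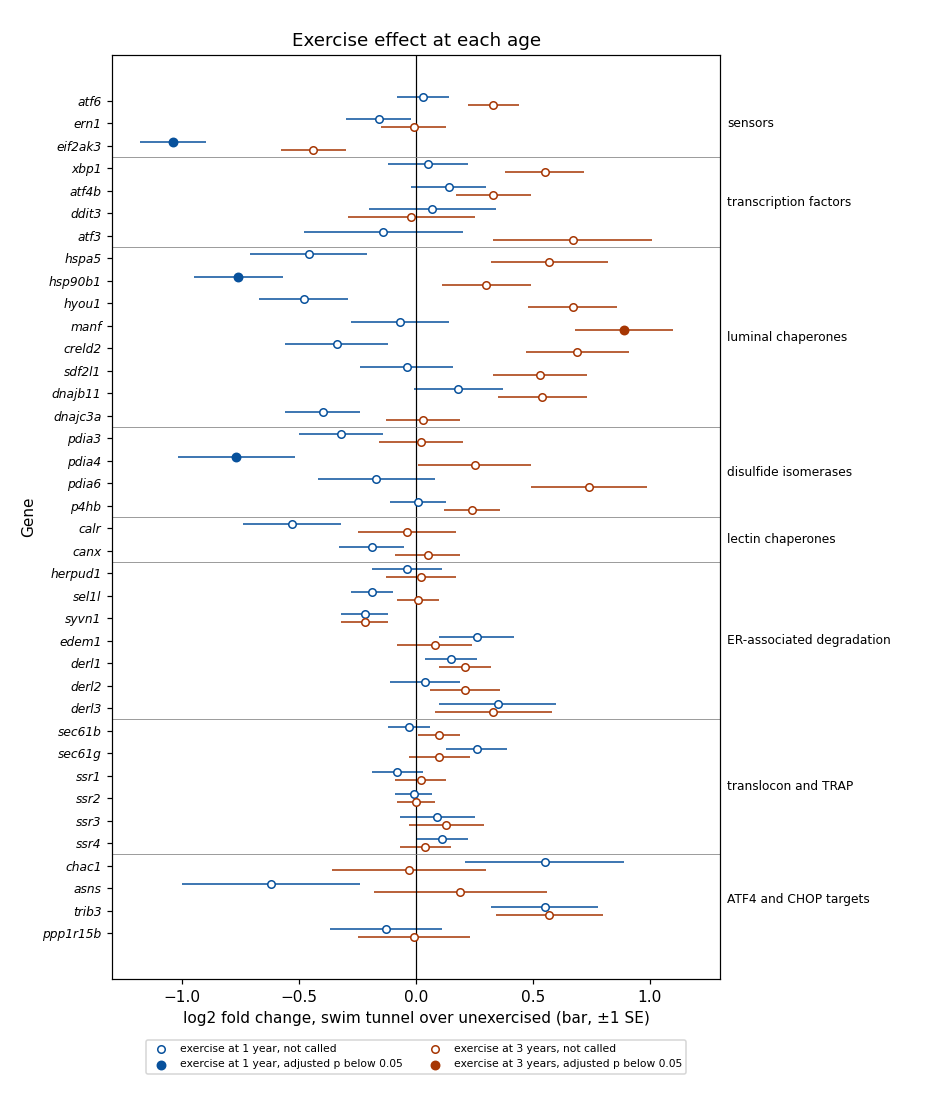
Log2 fold change with exercise (swim tunnel over unexercised; bars, ±1 SE) of the 38 genes at 1 year (blue) and 3 years (brown), with filled points for calls. Filled points are eif2ak3 (-1.04), hsp90b1 (-0.76) and pdia4 (-0.77) at 1 year and manf (0.89) at 3 years, and the translocon genes lie near 0.

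For a group of 14 folding genes (luminal chaperones, disulfide isomerases and lectins, a grouping made after the values had been seen), the difference of the exercise effects was positive for 14 of 14, with a median of 0.74, beside 0.02 for all genes; 0 were called by edgeR's quasi-likelihood test and 7 had an unadjusted p below 0.05, as did 2783 of the 20788 genes tested. Over all 38 genes the median difference was 0.21, with 32 positive. DESeq2 called 2 of them, hsp90b1 and hyou1, beside 2.4% of all genes tested, and limma voom 0. The luminal chaperones alone had a median difference of 0.99, from 0.36 to 1.15. The translocon genes had a median of 0.03. For the 48 tested genes of a list of other ER folding genes, outside the 38, the median difference was 0.21, with 37 positive. Of these 0 were called by edgeR's quasi-likelihood test and 3 had an unadjusted p below 0.05.

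Single libraries weigh on these values. Without replicate 1 of the unexercised 1-year fish, exercise at 1 year gave hspa5 -0.24 instead of -0.46 and hyou1 -0.37 instead of -0.48. The medians of the luminal chaperones and of the 14 folding genes were not computed without that library. In the 20 fits without 1 library each, the difference was 0.81 to 1.19 for hspa5 and 0.85 to 1.18 for hsp90b1. Replicate 4 of the swim-tunnel 3-year fish had the highest level of 17 of the 38 genes and of 10 of the 14 folding genes, with a folding median of 0.80 above the mean over libraries on the log2 scale. How many of all genes tested were highest in this library was not counted. Without this library the median of the 14 genes with exercise at 3 years went from 0.42 to 0.26, and the number of positive values from 13 to 10. The median difference of the exercise effects went from 0.74 to 0.52, with 14 of 14 still positive. With age in exercised fish the median of the 14 genes went from 0.30 to 0.09, and the number of positive values from 13 to 9. The same library had the lowest summed basal keratinocyte (54900 CPM), muscle (3140 CPM) and hepatocyte markers (1270 CPM) and the highest summed neutrophil (671 CPM), macrophage (7730 CPM) and B and plasma cell markers (132 CPM). Among swim-tunnel 3-year fish the neutrophil sum ran from 166 to 671 CPM, against 115 to 204 CPM in unexercised 3-year fish, with no marker of the list at 0. The part of these cells in the result was not tested.

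At 1 year, markers of other cells moved with exercise as well. Of 24 hepatocyte markers 20 were called higher in swim-tunnel fish, with sums from 1860 to 6750 CPM, against 1350 to 2250 CPM without exercise. Of 12 tested basal keratinocyte markers 8 were higher, with sums from 81000 to 119000 CPM, against 63400 to 82600 CPM. The hepatocyte and basal keratinocyte sums overlapped between the 1-year groups, while the sums of 3 other lists did not. Superficial keratinocyte markers, 5 of 12 called higher, summed to 10300 to 19700 CPM with exercise and 4650 to 7820 CPM without. Fibroblast markers, 2 of 15 called higher, summed to 10300 to 20800 CPM and 6380 to 9590 CPM. Osteoblast markers, 4 of 13 called higher, summed to 2290 to 4940 CPM and 960 to 1960 CPM. The part of any of these cells in the falls of eif2ak3, hsp90b1 and pdia4 was not tested. With the mean of the hepatocyte markers as a covariate, hsp90b1 (-0.75, adjusted p = 0.0721) and pdia4 (-0.87, adjusted p = 0.0967) were no longer called and eif2ak3 was. Without it hsp90b1 was at -0.76 and pdia4 at -0.77. The share of all genes called went from 15.5% without the covariate to 8.77% with it. As most hepatocyte markers rose with exercise, this covariate cannot decide the part of those cells. With the mean of the muscle markers instead, eif2ak3 (-1.01, adjusted p = 0.000936), hsp90b1 (-0.73, adjusted p = 0.0143) and pdia4 (-0.68, adjusted p = 0.0393) were called. Of all genes 15.2% were called with the muscle markers. With exercise at 3 years, 3 of 12 basal and 2 of 12 superficial keratinocyte markers were called higher. So were 1 osteoblast, 1 macrophage and 1 muscle marker, and no marker was lower, beside 0.803% of all genes called higher. In exercised fish, 14 hepatocyte and 7 of 12 basal keratinocyte markers were lower at 3 years than at 1 year, and 1 basal was higher. Superficial keratinocyte and mucous cell markers had 2 lower each, osteoblast 1 higher and 3 lower, fibroblast 3 higher and 3 lower. Of all genes tested 2022 were called higher and 1544 lower. Of the immune lists 8 of 16 macrophage, 3 of 6 neutrophil and 5 of 8 B and plasma cell markers were higher, the B and plasma cell sums running from 18.8 to 25.5 CPM and from 55.6 to 132 CPM. With the hepatocyte covariate neither eif2ak3 (0.53, adjusted p = 0.0669) nor hsp90b1 (0.73, adjusted p = 0.0633) was called between those groups. Their fold changes without it were 0.53 and 0.75, and the share of all genes called went from 17.2% without to 8.11% with it. With the muscle covariate eif2ak3 (0.54, adjusted p = 0.0131) and hsp90b1 (0.75, adjusted p = 0.0113) were called, beside 18.6% of all genes.

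Other genes of the pathway were taken from 6 lists. With exercise at 1 year between 7.84% and 18.2% of the tested genes of a list were called, beside 15.5% of all genes, so these counts do not set the lists apart. Of the 20788 genes tested 1532 were called higher and 1695, or 8.15%, lower. At 1 year 3 of 24 tested regulators rose and none fell: nfe2l2a (0.78, SE 0.14, adjusted p = 0.00144), which encodes the antioxidant factor Nrf2, and creb3l2 (0.74, SE 0.15), an ER-bound transcription factor, led them. Of 48 other folding genes 4 fell and none rose, among them pdia7 (-0.52, SE 0.12) and uggt1 (-0.85, SE 0.22), the sensor of glycoprotein folding. Of 40 genes of degradation and glycan handling 2 rose and 3 fell, and of 33 translocation genes 2 rose and 4 fell. The oligosaccharyltransferase subunit stt3b, on both lists, fell by 0.63 (SE 0.13, adjusted p = 0.00322). Of 51 genes of ER to Golgi transport 2 rose and 2 fell, and of 51 other Atf4 targets 5 rose and 2 fell, with cebpg at 0.78 (SE 0.12) and slc3a2a at 0.86 (SE 0.17).

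At 3 years exercise gave 3 calls over the 6 lists, 1 each on 3 of them, beside 1.32% of all genes called. The pro-apoptotic gene bbc3 was at 15.8 ± 6.31 CPM without and 5.49 ± 1.17 CPM with exercise, and was called lower (log2 difference -1.52 with SE 0.34, adjusted p = 0.0352). The signal recognition particle receptor gene srpra rose by 0.77 (SE 0.18, adjusted p = 0.0475) and vegfaa by 1.47 (SE 0.34, adjusted p = 0.0384). With age in unexercised fish dnajc10, a reductase of the ER, fell by 0.54 (SE 0.13, adjusted p = 0.0432). With age in exercised fish between 2.08% and 18.2% of the tested genes of a list were called, beside 17.2% of all genes, 2022 of them higher and 1544 lower. There 3 regulators fell and none rose, among them nfe2l2a by 0.64 (SE 0.13), and of the other Atf4 targets 3 rose and 5 fell, cebpg by 0.51 (SE 0.12).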

How the data were processed

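Per the labels' protocols, RNA was prepared with the TruSeq RNA kit v2. Per the submitters' processing notes, the tools were featureCounts 1.4.6-p4, STAR 2.4.1d and bcl2fastq 1.8.4, with build GRCz10. Their settings are not stated. The authors deposited raw counts per gene (32105 genes, 20 libraries) and a matching RPKM table. The deposited RPKM values were used only to recover gene length: they returned 1 length per gene (coefficient of variation 0.00178%, over 5372 genes with at least 500 counts in each library) only if each value was divided by library totals taken in turn down the gene list, against 22.6% with each column's own total. That is an inference from the values.

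Groups came from the age and perturbation labels, 5 libraries each, numbered in accession order. R 4.3.3 with edgeR 4.0.16 was used: TMM scaling, filterByExpr, robust quasi-likelihood fits of 4 group means on all 20 libraries (16 residual degrees of freedom, biological coefficient of variation 34.7%) and Benjamini-Hochberg adjustment over 20788 genes. The fit was tested on simulated data, in which every gene had the same biological coefficient of variation, 34.7%. Of 2-fold changes it found 20% for exercise at 1 year, 14% at 3 years and 4% for the difference of exercise effects. For age it found 24% without and 26% with exercise. Of 4-fold changes it found 95%, 96%, 59%, 98% and 98% in the same order. Most simulated 2-fold changes thus went uncalled. For the genes of the unfolded protein response and ER protein folding, the median coefficient of variation by group was 13.0% to 22.1%. Whether the simulated rates hold for these genes was not tested. A gene without a call is not shown to be unchanged, though its interval can limit the size of a change. Intervals of 2 SE of the translocon genes lay between -0.63 and 0.59 in each comparison, short of a 2-fold change. Libraries of a group differed well beyond sampling noise, with a lowest chi-square of 47.8 per degree of freedom. No batch label was given. Alternatives used RLE or upper-quartile scaling, other filters, DESeq2 1.42.0, limma 3.58.1 voom with quality weights, the compared groups alone, muscle or hepatocyte marker covariates, and each library left out in turn.

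The 38 genes and all lists were chosen with earlier results of these data known. Genes with values in every library are hspa5, hsp90b1, xbp1, atf4b, ddit3, eif2ak3, manf and the 4 of lowest p in each comparison; of other genes, up to 2 called genes of lowest p per list and comparison. Of the 38, 7 overlap another gene in RefSeq (hspa5, hsp90b1, calr, derl1, sec61b, sec61g and ssr1), and the kit does not mark strand. The RefSeq positions are of another build than GRCz10, and overlap on GRCz10 was not checked. Promoter motifs and protein ends were not analysed here.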

Additional observations from a re-analysis of the deposited data

Results flagged for a closer look

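In 7 of 152 groups of 5 libraries, 1 library stood apart from the other 4 by Dixon's criterion; chance alone gives about 1 in 20, or 7.6 groups. In swim-tunnel 3-year fish, replicate 5 had 25.5 CPM of eif2ak3 (others 32.7 to 33.8) and 70.9 CPM of ssr1 (others 55.5 to 57.1). Replicate 2 of that group had 709 CPM of atf4b (others 371 to 431). Replicate 4 had 30.3 CPM of atf3 (others 11 to 16.2) and 462 CPM of canx (others 256 to 314). Replicate 1 of the unexercised 3-year fish had 133 CPM of ddit3 (others 42.0 to 65.6), and replicate 3 of the swim-tunnel 1-year fish had 102 CPM of pdia6 (others 67.9 to 76.7).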

How the results depend on the processing

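No paired analysis was possible because the labels number no replicates and tie no library to another. The number of genes called among the 38 was 3, 1, 0, 2 and 0 for exercise at 1 year, exercise at 3 years, age without exercise, age with exercise and the difference of exercise effects. It moved with these settings. For exercise at 1 year it was 1 with the hepatocyte covariate (8.77% of all genes called, beside 15.5% in the reported fit). For exercise at 3 years it was 0 without a filter, with limma voom, with the compared groups alone and with the hepatocyte covariate. There 0.673%, 0.159%, 0.249% and 0.231% of all genes were called, beside 1.32%. With DESeq2 the number was 5, and 6.24% of all genes were called. For age without exercise it was 2 with DESeq2, limma voom or the muscle covariate (4.05%, 4.47% and 1.35% of all genes, beside 0.967%). For age with exercise it was 1 with the compared groups alone (8.39%) and 0 with the hepatocyte covariate (8.11%, beside 17.2%). For the difference it was 2 with DESeq2 (2.4%, beside 0.00481%). Leaving out 1 library in turn gave 2 to 4, 0 to 2, 0 to 3, 1 to 5 and 0 to 0 genes. The upper end, 5, came without replicate 5 of the swim-tunnel 3-year fish, where 19.8% of all genes were called. For age without exercise the calls came without replicate 3 of the unexercised 1-year or replicate 1 or 4 of the swim-tunnel 3-year fish. In those fits 1.42%, 1.42% and 1.37% of all genes were called. Changes of sign concerned values called neither in the reported fit nor under that alternative. With limma voom they were xbp1 (-0.00) at 1 year, ddit3 (0.29) at 3 years, pdia6 (-0.04) with age in exercised fish and ddit3 (0.21) for the difference. With the muscle covariate they were manf (0.02) at 1 year, ddit3 (0.07) at 3 years and atf4b (-0.03) with age in unexercised fish, where atf4b was -0.00 without a filter. With the hepatocyte covariate atf4b was -0.01 with age in exercised fish and -0.11 for the difference. With 1 library left out, the sign changed within these ranges: at 1 year xbp1 from -0.02 to 0.12, ddit3 from -0.05 to 0.20 and manf from -0.20 to 0.00; at 3 years ddit3 from -0.15 to 0.37 and pdia4 from -0.04 to 0.41; with age atf4b from -0.03 to 0.05 in unexercised fish, and in exercised fish atf4b from -0.00 to 0.29, manf from -0.08 to 0.31 and pdia6 from -0.02 to 0.40; for the difference atf4b from -0.01 to 0.29 and ddit3 from -0.22 to 0.30. Of the single-gene values under alternatives, 1491 kept direction and side of the threshold, 35 lost and 27 gained a call, and 31 changed sign; the cause was not tested. Fits that left out a library of a group not compared could move a value only little, so these counts do not measure how robust the values are. The compared groups alone could not be fitted for the difference. The stricter filter tested 37 of the 38 genes. Each group had 5 libraries, with 29280697 reads or more each. Any 2 libraries of a group differed beyond sampling noise, with a lowest chi-square of 47.8 per degree of freedom. What limits the precision of each gene was not tested, and ppp1r15b had 15 to 65 reads a library.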
